A study of Mus musculus with 6 samples.

Results

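Kupffer cells are the resident macrophages of the liver sinusoids, and 10 genes that mark them or macrophages in general were followed: Clec4f, Vsig4, Timd4, Cd5l, Marco, Adgre1, Csf1r, Cd163, Cd68 and Lyz2. They were taken by gene name from the deposited table of 54532 genes, and all 10 were present once and passed the filter of a mean of at least 0.5 FPKM (fragments per kilobase, with a scaling factor for each library), which 12022 genes passed. RNA of whole livers was sequenced from 3 mice with Notch1 deleted in hepatocytes (KO) and from 3 controls with floxed alleles (Notch1fl/fl), without treatment in either group. The study asks how Notch1 acts on the liver's production of thrombopoietin. The sources used here give no Cre driver, sex, age or strain, and nothing says whether the deletion reached cells other than hepatocytes. Nothing says either whether the 3 livers of a group came from separate litters, so p-values measure the spread between these livers.

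Kupffer cells settle in the liver before birth in mice and hold their place by signals from the sinusoid, among them CSF1, BMP and Notch ligands. They take up aged or desialylated blood cells and platelets, bacteria, hemoglobin and lipoproteins. Clec4f and Timd4 mark the resident cells in mouse liver, whereas Csf1r, Cd68 and Lyz2 are also expressed by monocytes and other myeloid cells.

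None of the 10 markers passed the test between KO and control livers, limma's moderated test on log2(FPKM + 1) with Benjamini-Hochberg adjustment (0 of 10 at an adjusted p under 0.05, against 0.025% of all genes tested, made up of 0.00832% higher and 0.0166% lower in KO livers). By limma voom on recovered reads the count was also 0. In the test on log2(FPKM + 1), 1 marker (Marco) had an unadjusted p under 0.05, against 13.9% of all genes tested. In 0 of 10 markers did the KO and control livers separate without overlap, against 19.8% of all genes tested (9.2% with KO livers higher and 10.6% with KO livers lower). The median log2 fold change of the 10 was -0.054, beside -0.0081 over all genes tested, with 4 higher and 6 lower means. Scaled by total reads in place of the deposited scaling, 7 were higher and 3 lower, and the median was 0.082, beside 0.097 over all genes. Whole-liver RNA cannot tell fewer Kupffer cells apart from less RNA of a marker per cell.

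**Figure D1:**
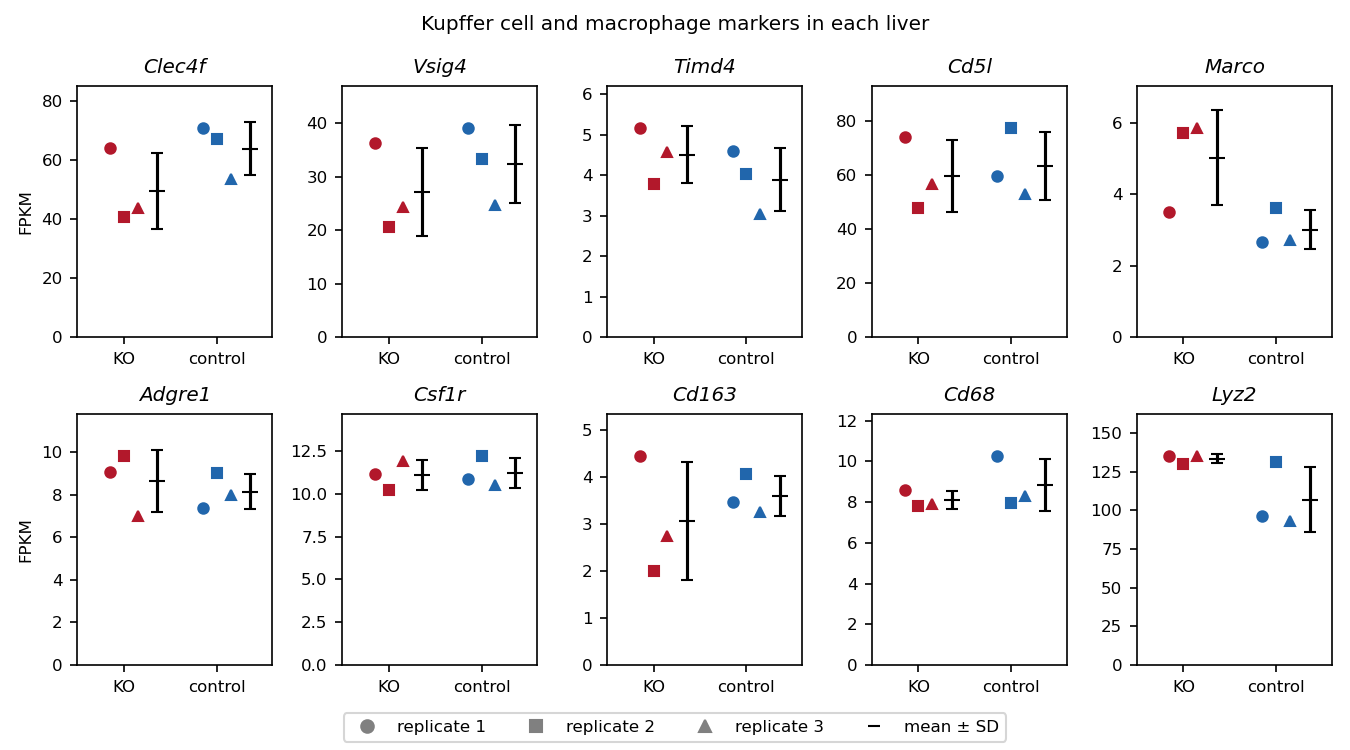
Level of each marker in FPKM (vertical axes, from 0) in the 3 KO livers (red) and the 3 control livers (blue), with replicate numbers as symbols and the mean ± SD in black. In every panel the KO and control points overlap; Marco, Lyz2, Timd4 and Adgre1 have the higher mean in KO livers and the other 6 the lower.

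The libraries held 15612924 to 17511961 reads in genes, and the 10 markers drew 77 to 3436 reads per library. Notch1 read 0.301, 0.540 and 0.292 FPKM in KO livers 1 to 3, against 0.618, 0.965 and 0.854 FPKM in control livers 1 to 3 (limma adjusted p = 0.257). Its KO values lay below all control values, though a whole-gene level does not measure the deleted part. KO liver 2 stood apart from the other KO livers in the acute-phase gene Saa1, which read 1023, 16.2 and 1596 FPKM in KO livers 1 to 3 and 41.9, 15.2 and 12.8 FPKM in controls 1 to 3. Mesothelial markers also differed between livers: the 10 listed summed to 93.4, 163 and 129 FPKM in KO livers 1 to 3, against 5.64, 14.2 and 56.5 FPKM in controls 1 to 3. Without KO liver 2 the log2 fold changes were -0.25 for Clec4f, -0.091 for Vsig4, 0.48 for Marco and 0.35 for Lyz2, and 0 of 10 markers passed. The part of the mesothelial pattern in the marker values was not tested.

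The markers spanned a wide range of levels per gene length, and their order followed no simple division into resident and general macrophage genes. Over the 6 livers Lyz2 averaged 120 FPKM, Cd5l 61.5, Clec4f 56.7 and Vsig4 29.7 FPKM. Csf1r followed with 11.2 FPKM, then Cd68 with 8.48, Adgre1 with 8.38, Timd4 with 4.20, Marco with 4.02 and Cd163 with 3.33 FPKM. By mean FPKM, Lyz2 exceeded 96.1% of the tested genes and Cd163 48.1%. Ranges over the 6 livers did not overlap between Lyz2 and Cd5l, Clec4f and Vsig4, Vsig4 and Csf1r, or Adgre1 and Timd4. They overlapped between the other neighbours: Cd5l was above Clec4f in 4 of 6 livers, Cd68 above Adgre1 in 3, Timd4 above Marco in 4 and Marco above Cd163 in 2, while Csf1r was above Cd68 in all 6 livers.

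Of the genes that mark resident Kupffer cells in the mouse, Clec4f had a lower mean in the KO livers. Clec4f encodes a C-type lectin receptor that binds galactose-ended glycans (ENSMUSG00000014542, chromosome 6, 83644542 to 83656187, GRCm38). It read 64.2, 40.6 and 43.9 FPKM in KO livers 1 to 3, against 70.9, 67.1 and 53.6 FPKM in control livers 1 to 3. KO livers 2 and 3 lay below every control, and KO liver 1 lay between controls 2 and 3. The means were 49.6 ± 12.8 FPKM in KO livers and 63.9 ± 9.10 FPKM in controls (SD, n = 3 each), on 1856 to 2657 reads per library. The log2 fold change was -0.38 (SE 0.20, 95% interval -0.84 to 0.085, limma adjusted p = 0.445), an interval from 0.558-fold to 1.06-fold on the FPKM + 1 scale. Within each same-numbered pair the KO liver was the lower one, and leaving out 1 liver gave -0.58 (without KO liver 1) to -0.25 (without KO liver 2).

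Vsig4 encodes the receptor for complement C3b by which Kupffer cells catch bacteria from the blood (ENSMUSG00000044206, chromosome X, 96247203 to 96293438). It measured 36.4, 20.5 and 24.4 FPKM in KO livers 1 to 3 and 39.1, 33.4 and 24.6 FPKM in control livers 1 to 3. All 3 KO values lay below control 1, and KO livers 2 and 3 lay below every control, KO liver 3 by a small margin. Its log2 fold change was -0.26 (95% interval -0.84 to 0.31, limma adjusted p = 0.680), with KO liver 1 between controls 1 and 2. Leaving out 1 liver gave -0.49 (without KO liver 1) to -0.091 (without KO liver 2), and in each same-numbered pair the KO liver was the lower one.

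Timd4, the phosphatidylserine receptor of macrophages that came from the embryo, had values that overlapped through most of their range (ENSMUSG00000055546, chromosome 11, 46810800 to 46844332). The levels were 5.17, 3.79 and 4.58 FPKM in KO livers 1 to 3 and 4.60, 4.02 and 3.05 FPKM in control livers 1 to 3. Only KO liver 1 lay above all controls. Its log2 fold change was 0.18 (95% interval -0.18 to 0.54, limma adjusted p = 0.654). It was 0.048 without control 3, 0.092 without KO liver 1 and 0.28 without control 1 or without KO liver 2.

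Cd5l, a secreted protein of the scavenger receptor family that macrophages release into plasma, was among the strongest markers (ENSMUSG00000015854, chromosome 3, 87357881 to 87371073). It read 74.1, 47.9 and 56.6 FPKM in KO livers 1 to 3, against 59.8, 77.4 and 53.0 FPKM in control livers 1 to 3. The highest value was that of control 2 and the lowest that of KO liver 2. Its log2 fold change was -0.094 (95% interval -0.57 to 0.38, limma adjusted p = 0.878), with 0.057 without control 2 and 0.047 when scaled by total reads.

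Marco, a class A scavenger receptor that binds bacteria and particles, differed most of the 10 and had the smallest p (ENSMUSG00000026390, chromosome 1, 120474538 to 120505024). It read 3.51, 5.73 and 5.86 FPKM in KO livers 1 to 3, against 2.67, 3.63 and 2.72 FPKM in control livers 1 to 3. KO livers 2 and 3 lay above every control, and KO liver 1 lay between controls 2 and 3. The means were 5.03 ± 1.32 FPKM in KO livers and 3.01 ± 0.543 FPKM in controls (SD, n = 3 each), a ratio of 1.67. On the log2 scale the KO livers were 0.57 higher (SE 0.19, 95% interval 0.13 to 1.02), a difference that did not pass (limma adjusted p = 0.265). Under the alternatives its adjusted p lay between 0.121 and 0.533. The counts behind it were low, at 101, 221 and 193 reads in KO livers 1 to 3 and 77, 112 and 87 reads in controls 1 to 3. The KO liver was the higher one within each same-numbered pair.

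**Figure D2:**
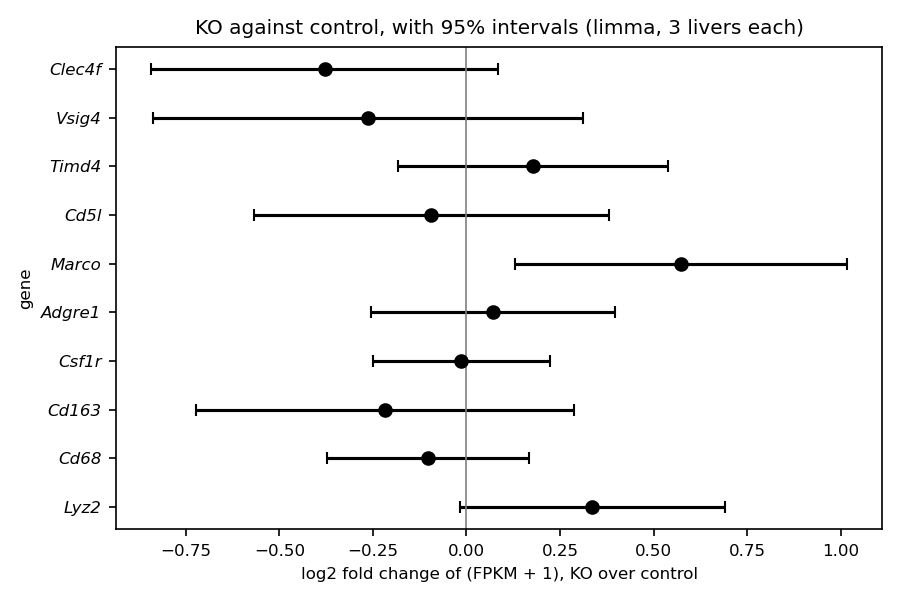
Log2 fold change of (FPKM + 1), KO over control, for each marker (points) with limma's 95% interval (bars), 3 livers per group. The interval of Marco (0.13 to 1.02) lies above 0, those of the other markers include 0, and none passed after adjustment over all genes.

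Clec4f and Vsig4 had lower means in the KO livers and Marco a higher one, so their promoters are set side by side below, as given by RefSeq for GRCm38.p6. Promoters of 8 of the 10 markers were found in that table. Capitals mark 2 motifs on either strand: GAGGAA, the core of sites of PU.1, the transcription factor that all macrophages need, and TGGGAA, the core of sites of RBPJ, the DNA-binding partner of Notch. Each sequence runs 5′ to 3′ on the gene's own strand, from 250 bases before the start to 50 bases after it, and the matches in it do not overlap. The windows are chr6:83656067-83656366 for Clec4f, chrX:96293389-96293688 for Vsig4 and chr1:120504975-120505274 for Marco, each on the minus strand.
Clec4f: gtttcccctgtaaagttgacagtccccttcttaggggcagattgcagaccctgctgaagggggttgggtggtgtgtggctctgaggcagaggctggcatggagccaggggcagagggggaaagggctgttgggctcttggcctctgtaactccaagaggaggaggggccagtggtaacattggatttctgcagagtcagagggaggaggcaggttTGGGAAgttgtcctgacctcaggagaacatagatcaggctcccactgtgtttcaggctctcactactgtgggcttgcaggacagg
Vsig4: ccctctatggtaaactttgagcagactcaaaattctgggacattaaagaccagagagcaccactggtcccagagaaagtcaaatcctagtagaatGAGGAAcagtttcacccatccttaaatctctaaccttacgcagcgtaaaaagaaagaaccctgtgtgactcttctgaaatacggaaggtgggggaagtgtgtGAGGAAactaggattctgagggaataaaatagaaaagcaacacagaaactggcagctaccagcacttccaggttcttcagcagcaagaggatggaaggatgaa
Marco: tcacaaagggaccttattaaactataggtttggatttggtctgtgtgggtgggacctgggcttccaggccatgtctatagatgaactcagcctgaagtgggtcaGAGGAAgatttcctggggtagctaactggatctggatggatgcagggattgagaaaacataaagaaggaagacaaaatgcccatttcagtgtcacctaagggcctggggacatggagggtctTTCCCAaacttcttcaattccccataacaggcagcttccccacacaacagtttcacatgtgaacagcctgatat

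The Clec4f window held TGGGAA 1 time and no GAGGAA, the Vsig4 window GAGGAA 2 times and no TGGGAA, and the Marco window each motif 1 time. GAGGAA was present in 4 of the 8 marker promoters and in 28.3% of all 32851 promoters in the table. TGGGAA was also present in 4 of the 8, and in 25.6% of all. These matches describe letters only.

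Of the markers shared by macrophages in general, Csf1r, Adgre1 and Cd68 had log2 fold changes near 0 and Lyz2 a higher mean in KO livers. Csf1r, the receptor for CSF1 and IL-34 on which Kupffer cells depend, was the steadiest of the 10 (ENSMUSG00000024621, chromosome 18, 61105572 to 61132149). It read 11.2, 10.2 and 11.9 FPKM in KO livers 1 to 3, against 10.9, 12.2 and 10.5 FPKM in control livers 1 to 3. Its highest value was 1.198 times its lowest over the 6 livers. Between the groups the log2 fold change was -0.014 (95% interval -0.25 to 0.22, limma adjusted p = 0.968), which on the FPKM + 1 scale spans 0.840-fold to 1.17-fold. It was 0.12 when scaled by total reads, 0.039 without KO liver 2 and 0.045 without control 2. The annotation places the end of Hmgxb3 on the opposite strand over the end of Csf1r, and with the strand of counting not given, reads there cannot be told apart. Hmgxb3 itself measured 1.96 ± 0.464 FPKM in KO livers and 2.09 ± 0.0619 FPKM in controls.

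Adgre1 encodes F4/80, the surface receptor by which mouse macrophages are usually stained (ENSMUSG00000004730, chromosome 17, 57358691 to 57483527). It measured 9.07, 9.83 and 7.01 FPKM in KO livers 1 to 3 and 7.39, 9.02 and 7.97 FPKM in control livers 1 to 3. KO livers held both the highest and the lowest value, and the log2 fold change was 0.070 (95% interval -0.26 to 0.40, limma adjusted p = 0.865). Without KO liver 2 it was -0.020.

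Cd68, a glycoprotein of macrophage lysosomes, spread less among KO livers than among controls (ENSMUSG00000018774, chromosome 11, 69664213 to 69666153). Its levels were 8.62, 7.82 and 7.91 FPKM in KO livers 1 to 3 and 10.3, 7.95 and 8.28 FPKM in control livers 1 to 3. Control 1 was the highest, and the other 5 livers lay close together. KO livers 2 and 3 lay just below control 2. Its log2 fold change was -0.10 (95% interval -0.37 to 0.17, limma adjusted p = 0.744) and 0.024 when scaled by total reads. Without control 1 it was -0.00075 and without control 2 -0.17. Within each same-numbered pair the KO liver was the lower one, as for Clec4f and Vsig4.

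Lyz2, lysozyme M of macrophages, monocytes and neutrophils, was the most abundant marker and had nearly the same level in the 3 KO livers (ENSMUSG00000069516, chromosome 10, 117277331 to 117282321). It read 136, 130 and 135 FPKM in KO livers 1 to 3, against 96.5, 131 and 93.0 FPKM in control livers 1 to 3. Control 2 lay within the KO range, and the other controls lay below it. The means were 134 ± 2.92 FPKM in KO livers and 107 ± 21.2 FPKM in controls (SD, n = 3 each), a ratio of 1.25. On the log2 scale the KO livers were 0.34 higher (SE 0.15, 95% interval -0.018 to 0.69, limma adjusted p = 0.384). Its neighbour and close copy Lyz1 measured 0.424, 1.15 and 0.787 FPKM in KO livers and 0.106, 0.346 and 0.572 FPKM in controls, and reads of the pair may have been divided uncertainly.

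Neutrophils also express Lyz2. Of 12 neutrophil genes 5 were tested, with 3 higher and 2 lower means in KO livers, and 0 passed. The 12 listed summed to 12.1 to 39.3 FPKM in KO livers and 7.32 to 19.8 FPKM in controls. S100a8, a calcium-binding protein abundant in neutrophils, read 7.80, 4.31 and 10.03 FPKM in KO livers 1 to 3 and 2.497, 1.53 and 4.60 FPKM in controls 1 to 3 (limma adjusted p = 0.247). S100a9, its binding partner, read 11.4, 5.54 and 24.3 FPKM in KO livers 1 to 3 and 2.43, 6.34 and 10.3 FPKM in controls 1 to 3. In both genes the KO and control livers overlapped. The lower means were those of Camp and Csf3r, named after their values were seen, at 0.356 and 0.508 FPKM in KO livers and 0.652 and 0.604 FPKM in controls. The part of neutrophil RNA in the level of Lyz2 was not tested.

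Cd163, which takes up complexes of haptoglobin and hemoglobin, varied most among the KO livers (ENSMUSG00000008845, chromosome 6, 124304656 to 124330527). It read 4.46, 2.0002 and 2.74 FPKM in KO livers 1 to 3, against 3.47, 4.07 and 3.26 FPKM in control livers 1 to 3. KO liver 1 lay above all controls and KO livers 2 and 3 below all of them. The coefficient of variation was 41.1% in KO livers and 11.7% in controls, and the log2 fold change was -0.22 (95% interval -0.72 to 0.29, limma adjusted p = 0.704). It was -0.022 without KO liver 2 and -0.45 without KO liver 1.

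Across livers the markers did not shift as 1 block. KO liver 1 lay above all controls in 4 of the 10 markers and below all of them in 0. KO liver 2 lay above all controls in 2 and below all in 6, and KO liver 3 above in 2 and below in 5. KO liver 2 held the lowest value of the 6 livers for 6 markers and the highest for 1. Such counts for single livers were not taken over all genes tested, so no background share stands beside them. Summed over the 10, the markers came to 352, 279 and 300 FPKM in KO livers 1 to 3 and 306, 350 and 260 FPKM in controls 1 to 3. The sums overlapped, and Lyz2, Cd5l and Clec4f make up most of them.

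**Figure D3:**
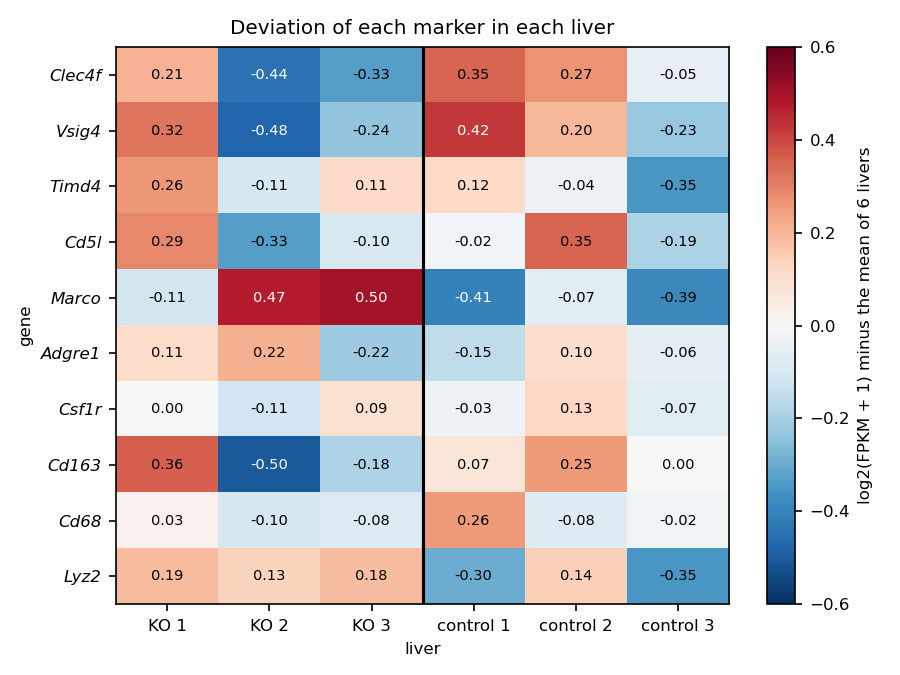
Log2(FPKM + 1) of each marker (rows) in each liver (columns, KO left of the line and controls right of it) minus the mean of the 6 livers, in colour and numbers. Clec4f, Vsig4, Cd5l and Cd163 are below their mean in KO livers 2 and 3 and above it in KO liver 1 and control 2, while Marco is above its mean in KO livers 2 and 3.

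The profile of the 5 genes Clec4f, Vsig4, Timd4, Cd5l and Marco was compared with those of 9231 other genes by the Euclidean distance between standardized log2 values over the 6 livers. The 5 nearest genes were Yipf1, Glb1, Zfp207, C1qc and Tsr3, at distances of 0.897 to 0.930. Glb1 encodes lysosomal beta-galactosidase and C1qc a chain of complement C1q, which Kupffer cells make. Of the 5 nearest, only C1qc is on a list of Kupffer cell genes used here. Marco itself lay at 2.86 from this mean profile, farther than each of the other 4 (1.21 to 1.58). Each of these genes is part of that mean, so their distances from it only restate the values given above.

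Other genes of Kupffer cells showed no change past the threshold either. Of 19 tested surface and effector genes, 0 passed, 10 had higher and 9 lower means, and the median log2 fold change was 0.024. The chains of complement C1q, made in the liver mainly by Kupffer cells, overlapped between the groups. C1qa measured 66.7 ± 7.32 FPKM in KO livers and 62.8 ± 4.89 FPKM in controls, and C1qc 31.2 ± 2.81 FPKM in KO livers and 30.3 ± 2.57 FPKM in controls. Mrc1, the mannose receptor, which sinusoidal endothelium also expresses, read 5.67, 5.28 and 4.65 FPKM in KO livers 1 to 3 and 7.87, 7.35 and 6.75 FPKM in controls 1 to 3 (log2 fold change -0.43, limma adjusted p = 0.168). Slc40a1, the iron exporter ferroportin, read 10.6, 11.98 and 11.2 FPKM in KO livers 1 to 3 and 14.6, 14.2 and 12.4 FPKM in controls 1 to 3 (limma adjusted p = 0.321). Hpgd, the enzyme that breaks down prostaglandins, measured 58.8 ± 10.4 FPKM in KO livers and 86.6 ± 11.3 FPKM in controls (limma adjusted p = 0.225). Siglec1, the sialic acid receptor of resident macrophages, read 1.29, 1.03 and 1.40 FPKM in KO livers 1 to 3 and 1.55, 1.72 and 1.72 FPKM in controls 1 to 3 (limma adjusted p = 0.343). In these 4 of the 19 genes every KO liver lay below every control, against 10.6% of all genes tested, and in 0 of 19 did every KO liver lie above. The part of liver cells other than Kupffer cells in the values of Slc40a1 and Hpgd was not tested.

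Markers of the sinusoidal endothelium also had mostly lower means. Of 12 tested, 10 had lower means in KO livers (9 by log2 change when scaled by total reads) and 0 passed, with a median log2 fold change of -0.18. In 3 of the 12 every KO liver lay below every control, against 10.6% of all genes tested. In 0 of the 12 did every KO liver lie above. The sum of these markers ran from 72.6 to 92.5 FPKM in KO livers and from 75.4 to 96.8 FPKM in controls. Whether they play a part in the values of Mrc1 was not tested.

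Of 10 tested transcription factors of Kupffer cells, 0 passed, and 6 had higher and 4 lower means. Nr1h3, the oxysterol receptor LXR alpha that Kupffer cells need, read 51.7, 47.7 and 44.8 FPKM in KO livers 1 to 3 and 49.9, 42.8 and 41.5 FPKM in controls 1 to 3. Spi1, which encodes PU.1, measured 3.89 ± 0.954 FPKM in KO livers and 3.31 ± 0.545 FPKM in controls. Irf7, an interferon response factor, read 13.8, 5.88 and 11.9 FPKM in KO livers 1 to 3 and 16.9, 16.2 and 14.0 FPKM in controls 1 to 3, without overlap (limma adjusted p = 0.392). Id1, an inhibitor of helix-loop-helix factors and a BMP target, read 7.44, 28.3 and 15.5 FPKM in KO livers 1 to 3 and 7.53, 6.89 and 9.96 FPKM in controls 1 to 3 (limma adjusted p = 0.431). Nr1h3, Spi1, C1qa and Siglec1 were named after their values were seen. The part of liver cells other than Kupffer cells in the values of Nr1h3 and Id1 was not tested.

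Of 13 tested signals of the Kupffer cell niche, 0 passed, and 4 separated the groups without overlap (Csf1, Gas6 and Tgfb2 higher and Jag1 lower in KO livers), against 19.8% of all genes tested. Csf1, the growth factor for Csf1r, read 1.86, 2.98 and 2.29 FPKM in KO livers 1 to 3 and 0.782, 1.06 and 1.57 FPKM in controls 1 to 3 (log2 fold change 0.66, limma adjusted p = 0.198). Gas6, the ligand of the receptors Axl and Mertk by which macrophages take up dying cells, read 45.1, 48.5 and 50.02 FPKM in KO livers 1 to 3 and 9.31, 16.6 and 29.1 FPKM in controls 1 to 3. Its log2 fold change was 1.47 (limma adjusted p = 0.166), and without control 3 it was 1.86 and passed (limma adjusted p = 0.0464). Under the other alternatives the adjusted p reached up to 0.379. Tgfb2 measured 0.979 ± 0.533 FPKM in KO livers and 0.345 ± 0.206 FPKM in controls (limma adjusted p = 0.327). Jag1, a Notch ligand named after its values were seen, read 0.413, 0.479 and 0.442 FPKM in KO livers 1 to 3 and 0.721, 0.632 and 0.558 FPKM in controls 1 to 3 (log2 fold change -0.18, limma adjusted p = 0.466). In Csf1, Gas6 and Tgfb2 control 3 was the highest control, as it was in the mesothelial sum (56.5 FPKM, against 5.64 and 14.2 in controls 1 and 2), and the part of mesothelial RNA in their values was not tested.

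Among genes of macrophages in general or of leukocytes, more had higher than lower means in KO livers. Of 18 tested, 0 passed, and 12 had higher and 6 lower means. The median log2 fold change was 0.049, beside -0.0081 over all genes tested. Scaled by total reads, 17 had a positive log2 change, and 13 lay above the median of all genes in that scaling. The list summed to 199 to 246 FPKM in KO livers and 188 to 225 FPKM in controls. Mpeg1, a pore-forming protein of macrophages, measured 19.1 ± 4.29 FPKM in KO livers and 14.6 ± 1.33 FPKM in controls, Fcgr3 9.52 ± 0.984 and 8.10 ± 0.749 FPKM in KO and control livers, and Laptm5 7.38 ± 0.383 and 6.51 ± 0.392 FPKM in KO and control livers (limma adjusted p = 0.432 to 0.476).

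Markers of monocytes and of other macrophages gave no gene past the threshold. Of 13 monocyte markers 3 passed the filter, and their sum was 15.3 to 21.0 FPKM in KO livers and 12.0 to 17.5 FPKM in controls, most of it Plac8. Cx3cr1, the fractalkine receptor of patrolling monocytes and of some tissue macrophages, read 0.534, 1.16 and 1.27 FPKM in KO livers 1 to 3 and 0.0148, 0.457 and 0.588 FPKM in controls 1 to 3 (limma adjusted p = 0.332), on 1 to 105 reads. Ccr2 and Ly6c2, the receptor and the surface protein that define inflammatory monocytes, reached at most 0.753 and 0.615 FPKM in any liver. Of 10 genes of lipid-associated macrophages 6 were tested, with 4 higher and 2 lower means, and the 10 summed to 70.0 to 134 FPKM in KO livers and 89.2 to 95.7 FPKM in controls. Most of that sum was Fabp5, a fatty acid-binding protein that other cells also express, at 42.9, 97.2 and 79.1 FPKM in KO livers 1 to 3 and 63.1, 58.9 and 63.5 FPKM in controls 1 to 3. Spp1, osteopontin, which bile duct cells also make, read 5.55 to 17.6 FPKM over the 6 livers, whereas Trem2 and Gpnmb reached at most 0.304 and 0.134 FPKM. Fabp5 and Spp1 were named after their values were seen. Cd9, a tetraspanin of those macrophages that other liver cells also express, read 7.10, 11.1 and 10.4 FPKM in KO livers 1 to 3 and 6.55, 6.29 and 7.01 FPKM in controls 1 to 3, without overlap (limma adjusted p = 0.291). Of 16 inflammatory genes of macrophages 8 were tested, and 0 passed. Cxcl10, an interferon-induced chemokine, read 0.742, 1.22 and 1.04 FPKM in KO livers 1 to 3 and 2.04, 1.39 and 1.36 FPKM in controls 1 to 3 (limma adjusted p = 0.327), without overlap.

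Of 8 genes of peritoneal and capsule macrophages 6 were tested, with 4 higher and 2 lower means in KO livers, and 0 passed. Of these, 2 separated the groups with KO livers higher and 1 with KO livers lower, against 9.2% and 10.6% of all genes tested. The other tested genes, Icam2, Prg4 and Alox15 (named after their values were seen), overlapped between the groups. Cd207 had the smallest p of all genes listed. It encodes langerin, a C-type lectin found on macrophages of the liver capsule and on Langerhans cells in mice. It read 6.41, 5.44 and 6.38 FPKM in KO livers 1 to 3, against 1.62, 2.34 and 3.20 FPKM in control livers 1 to 3. All KO livers lay above all controls, on 37 to 166 reads per library. The log2 fold change was 1.09 (limma adjusted p = 0.107), and without control 3 it was 1.26 and passed (limma adjusted p = 0.0464). Under the other alternatives the adjusted p reached up to 0.323. Control 3 was the highest control for Cd207, as it was in the mesothelial sum (56.5 FPKM), and the part of mesothelial RNA in its values was not tested. Cd209f, another C-type lectin, read 0.471, 0.702 and 0.353 FPKM in KO livers 1 to 3 and 1.07, 2.04 and 1.33 FPKM in controls 1 to 3 (log2 fold change -0.71, limma adjusted p = 0.166). Gata6, the factor that defines peritoneal macrophages and is also made by mesothelium and stellate cells, read 1.54, 2.36 and 1.66 FPKM in KO livers 1 to 3 and 0.954, 1.07 and 0.689 FPKM in controls 1 to 3 (limma adjusted p = 0.180).

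Over the 18 other lists together, 145 genes were tested, 0 passed, 34 (23.4%) had an unadjusted p under 0.05 and 34 (23.4%) separated the groups without overlap, against 13.9% and 19.8% of all genes tested. Mesothelial genes made up 8 of the first 34 and 7 of the second, and bile duct genes 3 and 3. The lists were chosen with earlier results of these data known, so these shares are not independent of the data. Mesothelial and bile duct markers had the highest medians (log2 fold change 1.90 over 8 genes and 1.01 over 4), and red cell genes the lowest (-0.65 over 5). Msln, the mesothelial surface protein mesothelin, read 36.6, 60.7 and 41.8 FPKM in KO livers 1 to 3 and 2.02, 3.90 and 19.1 FPKM in controls 1 to 3 (limma adjusted p = 0.165). Hba-a2, an alpha globin, measured 46.9 ± 17.8 FPKM in KO livers and 89.9 ± 13.7 FPKM in controls (limma adjusted p = 0.210), but reads of Hba-a1 and Hba-a2 may be divided uncertainly. Of 9 tested hepatocyte genes 8 had lower means in KO livers (6 by log2 change with quantile normalization or scaling by total reads), with a median log2 fold change of -0.23. Of 10 stellate cell genes 7 had lower means (4 by log2 change when scaled by total reads), and of 4 B and plasma cell genes all 4 did. The globins are carried by blood in the sinusoids where Kupffer cells sit, and their part in the marker levels was not tested.

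**Figure D4:**
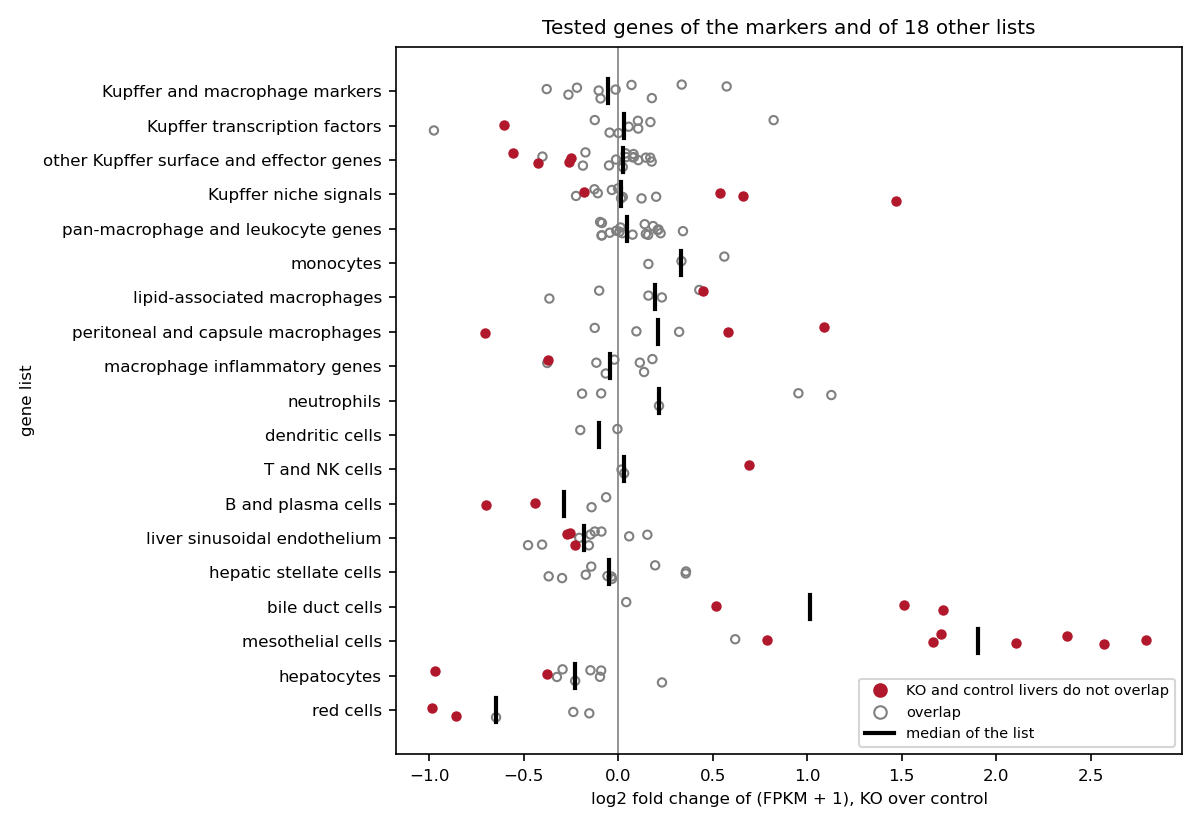
Log2 fold change of (FPKM + 1), KO over control, for each tested gene (points) of the markers (top row) and of the 18 other lists, with list medians as black bars; filled red points are genes whose KO and control livers do not overlap. The marker row holds no filled point and a median of -0.054, while mesothelial genes lie to the right with a median of 1.90.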

How the data were processed

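Liver messenger RNA was enriched by poly-T capture before NEBNext Ultra library preparation, per the labels' protocols. HISAT2 2.0.5, featureCounts 1.5.0-p3 and GRCm38 are named, without settings, per the submitters' processing notes. The authors deposited FPKM per gene and library. Multiplied by gene length, 100% of the values above 0 fell on whole multiples of a constant of their library (tolerance 0.1 read), and reads were recovered from it. The deposited scaling followed median ratios of reads (factors 0.911 to 1.22), not read totals. A count of 3 reads over 1 kilobase equals 0.150 to 0.201 FPKM. KO columns carry the group's name. Columns named NC were taken as controls by elimination, numbered as the titles (0 value columns left over).

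Genes averaging 0.5 FPKM or more were tested with limma 3.58.1 (lmFit, eBayes with trend, R 4.3.3) on log2(FPKM + 1), KO against control, two-sided, without a block, adjusted by Benjamini-Hochberg over 12022 genes at a threshold of 0.05. The pseudocount of 1 understates changes of low genes. The fit was also run on simulated reads, drawn with the same setting of spread for all genes. Differences between single livers such as those in Saa1 were not simulated, so no error rate for these data is drawn from that run. Same-numbered KO and control libraries had deviations from their group means that correlated across genes at 0.31, 0.16 and 0.10 (unrounded 0.1011), each above 0.1, so a fit with the replicate number as a block was run. Libraries with different numbers correlated at -0.25 to 0.11, and the labels give no shared litter or day. The 14 alternatives changed the pseudocount, filter, scaling or model, or left out 1 liver. Named genes were the 10 markers, the 3 genes of each list with the smallest p, the 5 with the nearest profile, and Notch1. Not every gene so chosen is reported here. Others are marked as named after their values were seen or stand for a defining marker or an overlapping gene. Of 211 genes on the other lists, 209 are in the table under the listed name. The markers and lists were chosen with earlier results of these data known.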

Additional observations from a re-analysis of the deposited data

How the results depend on the processing

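None of the 10 markers passed under any of the 14 alternatives, and 6 of them kept the sign of their log2 fold change in each. Scaling by total reads moved the median log2 fold change of all genes to 0.097, from -0.0081, and with it the signs of Cd5l (0.047), Csf1r (0.12), Cd68 (0.024), Zbtb46 (0.052), Glb1 (0.066) and Zfp207 (0.11). Nkg7 was -0.022 with quantile normalization and -0.022 with limma voom on recovered reads. Leaving out 1 liver gave log2 fold changes from -0.26 to 0.057 for Cd5l, -0.020 to 0.20 for Adgre1, -0.063 to 0.045 for Csf1r, -0.064 to 0.091 for Zbtb46, -0.10 to 0.15 for Gzma, -0.15 to 0.15 for Nkg7, -0.044 to 0.083 for Yipf1, -0.18 to 0.086 for Glb1, -0.10 to 0.059 for Zfp207, -0.028 to 0.10 for C1qc and -0.088 to 0.086 for Tsr3. The number of genes called was 3 in the fit reported, 1 with a pseudocount of 0.1, 0 without a filter on low values, 15 with limma voom (chosen after the data were seen) and 0 with the replicate block. It ran from 0 to 58 when 1 liver was left out. Of the genes on other lists, 0 to 7 passed in those fits, the 7 without control 3 (Gas6, Cd207, Krt19, Msln, Upk3b, Upk1b and Lrrn4). The replicate block changed no call of a marker or a listed gene. The cause of these changes was not tested. Count-model tests planned on the reads were not run, because the deposited unit is FPKM. Marco had the lowest read count of the 10 markers (77 in control 1), and 3 livers per group limit every interval given. An adjusted p above the threshold does not show that a marker was equal in both groups.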

Other observations

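Ratios between markers within a liver do not depend on library scaling, and were looked at after the values were seen, without a test. Marco was 5.46%, 14.1% and 13.3% of Clec4f by FPKM in KO livers 1 to 3, against 3.76%, 5.41% and 5.07% in control livers 1 to 3. KO liver 1 exceeded control 2 by a small margin only, and the other KO livers stood well above all controls. Clec4f was 87.3%, 68.8% and 64.9% of C1qa in KO livers 1 to 3, against 118%, 98.0% and 89.3% in control livers 1 to 3. All KO livers lay below all controls, but KO liver 1 lay below control 3 by a small margin only. How often ratios of other genes separate the groups was not counted. Clec4f was 5.76, 3.97 and 3.68 times Csf1r in KO livers 1 to 3 and 6.52, 5.48 and 5.09 times in control livers 1 to 3, where KO liver 1 lay within the control range. Cd163 was 3.29%, 1.54% and 2.03% of Lyz2 in KO livers 1 to 3, against 3.59%, 3.10% and 3.51% in control livers 1 to 3. KO livers 2 and 3 lay below every control in this ratio. An unequal ratio says only that the 2 genes differed unequally between livers.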
